A study of Mus musculus with 10 samples.

Results

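The 40 genes described here make up a module of cell division. Of these, 21 act in DNA replication (Mcm2 to Mcm7, Mcm10, Cdc45, Cdc6, Cdt1, Gins1, Gins2, Pcna, Rfc3, Rfc4, Pola1, Pole, Pold1, Rrm1, Rrm2 and Tyms) and 19 in mitosis (Mki67, Top2a, Ccna2, Ccnb1, Ccnb2, Cdk1, Cdc20, Bub1, Bub1b, Aurka, Aurkb, Plk1, Ttk, Kif11, Cenpe, Cenpf, Birc5, Nusap1 and Tpx2). They were taken by symbol from the 23488 gene rows of a mouse colon RNA-seq table, where 52 RefSeq transcripts map to them. All 40 were above 0 in every library and all 40 passed the filter on low values, which 14061 genes passed in all. Values are FPKM, fragment numbers scaled to transcript length and to the mapped fragments of the library, summed over the transcripts of a gene.

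The table holds 10 libraries of C57BL/6 mouse colon, 2 in each of 5 groups, numbered replicate 0 and replicate 1. All mice were injected at 6 weeks of age. Control mice received saline and ate the AIN-93M diet. The Model, ASA, CUR and ASA+CUR mice received 10 mg/kg azoxymethane (AOM), a colon carcinogen, and later drank 1.2% dextran sulfate sodium (DSS), which injures the colon lining, for 7 days. Model mice ate AIN-93M, ASA mice a diet with 0.02% aspirin, CUR mice a diet with 2% curcumin, and ASA+CUR mice a diet with 0.01% aspirin and 1% curcumin, so that each agent of the combination was given at a lower dose than alone. The labels call the AOM/DSS samples tumor samples, while the protocol describes a frozen piece of colon from which palpable tumors had been taken out, and nothing in the labels says whether 2 libraries with the same group name were made from different animals. The p-values therefore measure only how far these libraries lie apart, which may be technical.

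DNA is copied once per cell cycle, in S phase. The MCM proteins are loaded onto DNA as an inactive helicase by the origin recognition complex with Cdc6 and Cdt1, and are then switched on together with Cdc45 and the GINS complex. Chromosomes are separated later, in M phase, after cyclin B and Cdk1 have driven the cell into mitosis and the spindle checkpoint has cleared. Transcription of replication genes is known to rise through E2F factors near the start of S phase, and that of mitosis genes later, through the MuvB complex with B-Myb and FoxM1 at promoter elements called CHR (cell cycle genes homology region). In the colon, dividing cells lie in the lower crypt, and both gene groups are commonly read as signs of proliferation.

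The promoters of the 2 gene groups carried different short motifs. Promoter sequences of 300 bases, 250 before and 50 after the annotated start, came from RefSeq (build GRCm38.p6) and matched 33 of the 40 genes, 17 for replication and 16 for mitosis. Mcm4, Gins1, Gins2, Pole, Ccna2, Aurkb and Tpx2 had no entry. The 3 replication promoters printed first show the E2F-like motif (TTTCCCGC, TTTGGCGC, TTTGCCGC or TTTCGCGC, on either strand), which is in capitals. They are those of Mcm3 (chr1:20820263-20820562), the gene that passed the test in each comparison with Control, Mcm6 (chr1:128359656-128359955) and Rfc3 (chr5:151651159-151651458), all on the minus strand and written 5′ to 3′ in the direction of transcription.
Mcm3: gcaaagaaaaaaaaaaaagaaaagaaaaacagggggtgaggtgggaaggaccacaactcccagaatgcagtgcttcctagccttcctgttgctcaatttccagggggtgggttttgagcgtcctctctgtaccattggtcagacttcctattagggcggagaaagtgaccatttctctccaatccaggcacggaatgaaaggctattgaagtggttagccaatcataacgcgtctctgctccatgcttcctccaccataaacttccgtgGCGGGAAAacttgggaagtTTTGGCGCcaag
Mcm6: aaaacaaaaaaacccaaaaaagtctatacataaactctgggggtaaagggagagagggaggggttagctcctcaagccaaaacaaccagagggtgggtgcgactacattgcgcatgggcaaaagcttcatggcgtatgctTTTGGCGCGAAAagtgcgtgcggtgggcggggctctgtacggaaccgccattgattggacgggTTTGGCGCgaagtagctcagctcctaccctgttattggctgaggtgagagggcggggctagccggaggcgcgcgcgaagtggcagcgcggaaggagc
Rfc3: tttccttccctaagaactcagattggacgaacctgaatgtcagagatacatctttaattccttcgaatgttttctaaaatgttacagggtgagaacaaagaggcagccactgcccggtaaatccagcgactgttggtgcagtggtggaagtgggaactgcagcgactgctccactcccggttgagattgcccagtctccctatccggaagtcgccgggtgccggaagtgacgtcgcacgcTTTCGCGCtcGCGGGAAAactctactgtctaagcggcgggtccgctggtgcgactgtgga
The 3 mitosis promoters show the CHR-like motif (TTTGAA or TTCGAA, on either strand) in capitals. They are those of Top2a (chr11:99024140-99024439), Cdc20 (chr4:118437294-118437593) and Cdk1 (chr10:69352863-69353162), also on the minus strand.
Top2a: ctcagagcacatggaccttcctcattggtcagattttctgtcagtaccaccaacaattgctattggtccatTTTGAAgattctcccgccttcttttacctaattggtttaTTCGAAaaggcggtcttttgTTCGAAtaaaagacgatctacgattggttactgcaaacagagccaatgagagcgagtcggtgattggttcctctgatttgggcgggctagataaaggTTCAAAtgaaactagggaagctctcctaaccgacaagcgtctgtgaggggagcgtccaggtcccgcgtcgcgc
Cdc20: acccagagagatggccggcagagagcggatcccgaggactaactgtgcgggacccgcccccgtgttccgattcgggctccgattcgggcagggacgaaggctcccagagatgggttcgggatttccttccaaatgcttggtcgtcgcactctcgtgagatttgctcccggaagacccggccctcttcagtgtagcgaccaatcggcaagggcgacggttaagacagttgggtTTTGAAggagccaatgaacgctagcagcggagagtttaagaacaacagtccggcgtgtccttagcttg
Cdk1: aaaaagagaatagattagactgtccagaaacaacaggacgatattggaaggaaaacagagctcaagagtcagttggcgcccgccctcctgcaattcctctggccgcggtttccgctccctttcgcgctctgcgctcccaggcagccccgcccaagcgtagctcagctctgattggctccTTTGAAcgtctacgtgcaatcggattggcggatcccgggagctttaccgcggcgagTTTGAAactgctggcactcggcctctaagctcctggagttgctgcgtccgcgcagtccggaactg
In Mcm6, matches that start at positions -110 and -106 from the start site, on opposite strands, overlap and are written as 1 run of capitals.

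An E2F-like match was present in 9 of 17 replication promoters (52.9%), those of Mcm3, Mcm5, Mcm6, Mcm7, Cdc6, Cdt1, Rfc3, Pola1 and Pold1. Of the 16 mitosis promoters, only that of Cdk1 held such a match (6.25%), and among the promoters of all 27025 genes of the table the share was 2.32%. The CHR-like motif was in 12 of 16 mitosis promoters (75%) and in 4 of 17 replication promoters (23.5%), against 19.4% of all promoters. Among the 11003 promoters of genes that passed the filter on low values, 3.84% held an E2F-like and 14.1% a CHR-like match. A CCAAT box (CCAAT, either strand), which often stands near CHR elements, was in 14 of 16 mitosis promoters, 12 of 17 replication promoters and 37.9% of all. Among genes of the same pathways outside the 40, the E2F-like motif was in 7 of 26 promoters of other replication genes (26.9%) and the CHR-like motif in 28 of 35 promoters of other mitosis genes (80%). With only the 250 bases before the start, the share with a CHR-like match was 43.75% of the mitosis promoters, 37.1% of those of other mitosis genes and 17.4% of all. The E2F-like share in that window was 35.3% of the replication promoters, 11.5% of those of other replication genes and 1.91% of all. Promoters of genes that passed the filter had shares of 3.21% (E2F-like) and 12.5% (CHR-like) there. A match is a run of letters and not a bound site.

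**Figure D1:**
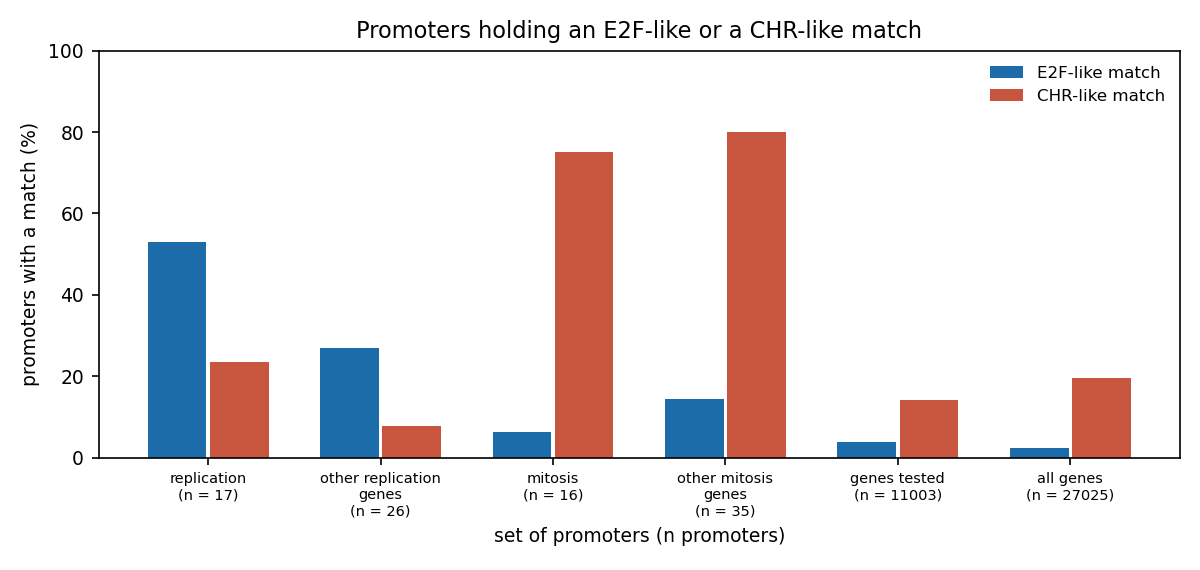
Share of promoters (percent, vertical axis) that hold an E2F-like or a CHR-like motif, for replication genes, mitosis genes, the other genes of both pathways and wider sets of promoters. The E2F-like bar is highest for the replication genes (52.9%) and the CHR-like bars are highest for the mitosis genes (75%) and the other mitosis genes (80%).

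The log2 differences of genes with and without a motif were set side by side. In the mean of the 4 AOM/DSS groups against Control, the 9 replication genes with an E2F-like match had a median log2 difference of 0.44 and the 8 without had 0.42. The 12 mitosis genes with a CHR-like match had a median of 0.29 and the 4 without had 0.27. For the E2F-like motif the medians with and without a match were 0.51 and 0.53 in Model, 0.30 and 0.26 in ASA, 0.39 and 0.28 in CUR, and 0.60 and 0.46 in ASA+CUR. For the CHR-like motif they were 0.27 and 0.17 in Model, 0.24 and 0.21 in ASA, 0.14 and 0.15 in CUR, and 0.57 and 0.64 in ASA+CUR. The ranges of genes with and without a match overlapped in each of these comparisons. These medians are descriptions, with no test.

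Markers of several other cell types differed between Control and AOM/DSS libraries, and so moved together with the groups compared here. Their part in the results was not tested. All 10 smooth muscle markers fell in the AOM/DSS groups, and their summed level was 6431 to 10471 FPKM in Control and 342 to 1080 FPKM in the 8 AOM/DSS libraries. The 15 pan-epithelial markers overlapped between Control (11937 to 13574 FPKM) and AOM/DSS (7917 to 16788 FPKM), with 1 called higher (Cldn4) and 2 called lower (Tspan8 and Cdx1). Stem cell markers rose in 9 of 10 cases, from a sum of 217 and 219 FPKM to 398 to 625 FPKM, and 6 of 8 markers of differentiated colonocytes fell. The colonocyte sum was 5725 and 5789 FPKM in Control and 648 to 1537 FPKM in Model, ASA and ASA+CUR, but 1464 and 5812 FPKM in CUR, where 1 of 8 passed, so that CUR overlapped Control. Of 6 fibroblast markers 5 rose and 1 (Lum) fell, with sums of 373 and 428 FPKM in Control and 492 to 1101 FPKM in AOM/DSS libraries. Leukocyte markers rose in 3 of 5 cases (sums of 61.0 and 102 FPKM in Control, 122 to 326 FPKM in AOM/DSS libraries), macrophage markers in 5 of 6 (114 and 157, and 246 to 541 FPKM) and T and NK cell markers in 3 of 7 tested (6.23 and 7.84, and 14.8 to 51.4 FPKM). Of 6 tested markers of B and germinal centre cells none passed, and their sums overlapped (17.2 and 19.02 FPKM in Control, 17.6 to 61.4 FPKM in AOM/DSS libraries). The 8 genes of stratified squamous epithelium summed to 0.857 and 1.54 FPKM in Control and to 14.9 to 840.0 FPKM in AOM/DSS libraries, with 5 of 7 tested called higher, while Trp63 and Sprr3 stood at 0 in Control and in several other libraries. In such bulk samples, fewer cells of a type and less RNA per cell cannot be told apart.

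Replication and mitosis genes were set against each other library by library. For each library the log2(FPKM + 1) of a gene was taken relative to the mean of the 2 Control libraries, and averaged over the 21 replication genes and over the 19 mitosis genes. The replication mean was above both Control libraries in 8 of 8 AOM/DSS libraries, and the mitosis mean in 5 of 8. On this scale the 2 Control libraries stood at 0.08 and -0.08 for replication and at 0.12 and -0.12 for mitosis.

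In Model replicate 0 both means were high and nearly equal, 0.85 for replication and 0.83 for mitosis. Model replicate 1 had a replication mean of 0.26 and a mitosis mean of -0.29, below both Control libraries. ASA replicate 0 had 0.48 and 0.51. The ASA libraries differed in the same direction as the Model libraries, since ASA replicate 1 had 0.25 for replication and -0.10 for mitosis. That mitosis mean was within the range of Control, unlike the one of Model replicate 1. In CUR the replication means were 0.46 and 0.36, with mitosis means of 0.07 and 0.19, the first of them within the range of Control. For ASA+CUR the replication means were 0.60 and 0.65 and the mitosis means 0.39 and 0.82. Both ASA+CUR libraries were thus above both Control libraries for both gene groups. The median over all genes tested lay between 0.00 and 0.02 in these libraries.

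The gap, the replication mean minus the mitosis mean, was -0.04 and 0.04 in Control. The Model libraries had 0.02 and 0.55, those of ASA -0.03 and 0.36, those of CUR 0.39 and 0.18, and those of ASA+CUR 0.20 and -0.17. The gap exceeded both Control libraries in 5 of the 8 AOM/DSS libraries. The group means were 0.28 ± 0.37 for Model, 0.16 ± 0.27 for ASA, 0.28 ± 0.15 for CUR and 0.02 ± 0.26 for ASA+CUR (SD, 2 libraries each). The SD within groups, pooled over the 5 groups, was 0.249, so that the gaps of Model and CUR were slightly larger than that spread, and those of ASA and ASA+CUR smaller. Without Model replicate 0 the gap of Model was 0.55, and without Model replicate 1 it was 0.02. For ASA and ASA+CUR the sign of the gap depended on single libraries, with -0.03 for ASA without ASA replicate 1, and for ASA+CUR -0.17 without ASA+CUR replicate 0 and -0.03 without Control replicate 0.

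On the FPKM scale, the summed level of the replication genes was 1.21 and 1.30 times that of the mitosis genes in Control. It was 1.28 and 1.95 times in Model, 1.21 and 1.70 times in ASA, 1.54 and 1.46 times in CUR, and 1.46 and 1.145 in ASA+CUR. Model replicate 1 had the highest ratio of the 10 libraries and ASA+CUR replicate 1 the lowest.

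**Figure D2:**
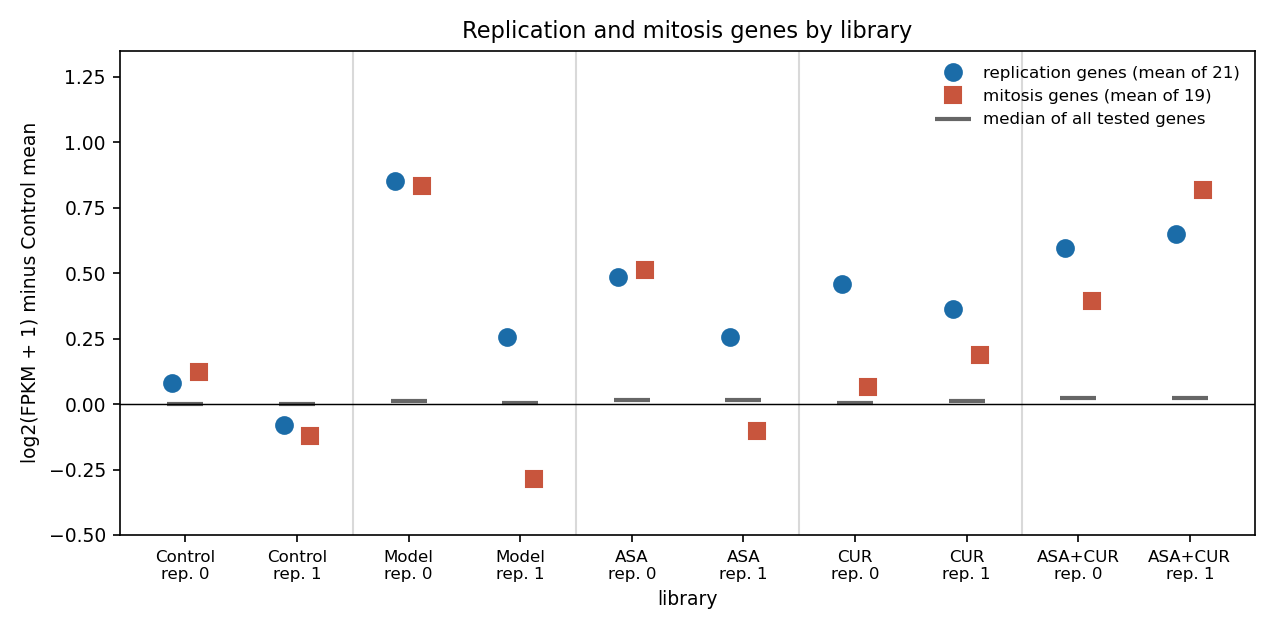
Mean log2(FPKM + 1) relative to the Control mean (vertical axis) of the 21 replication genes and the 19 mitosis genes in each of the 10 libraries. Replication means sit above both Control libraries in all 8 AOM/DSS libraries, while mitosis means run from -0.29 in Model replicate 1 to 0.83 in Model replicate 0.

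Gene by gene, the counts followed the means. In Model replicate 0, 21 of 21 replication genes and 19 of 19 mitosis genes were above both Control libraries, where 44.2% of all genes tested were. In Model replicate 1, 16 of 21 replication genes were above and 2 below, while 2 of 19 mitosis genes were above and 13 below, against 43% above and 42.5% below over all genes. ASA replicate 1 had 17 replication genes above and 3 below, and 5 mitosis genes above and 10 below, against 44.9% above and 43.4% below over all genes. For mitosis, these 2 libraries were the ones with more genes below Control than above.

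The other libraries had more genes above Control than below in both groups. In ASA replicate 0, 20 replication and 17 mitosis genes were above both Control libraries (45.4% of all genes). CUR replicate 0 had 18 and 8 (45%), CUR replicate 1 had 18 and 12 (44%), ASA+CUR replicate 0 had 20 and 15 (46.1%) and ASA+CUR replicate 1 had 20 and 19 (46.7%). The mitosis count of CUR replicate 0, 8 of 19 above and 6 below, was near the background of all genes, of which 44% were below.

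**Figure D3:**
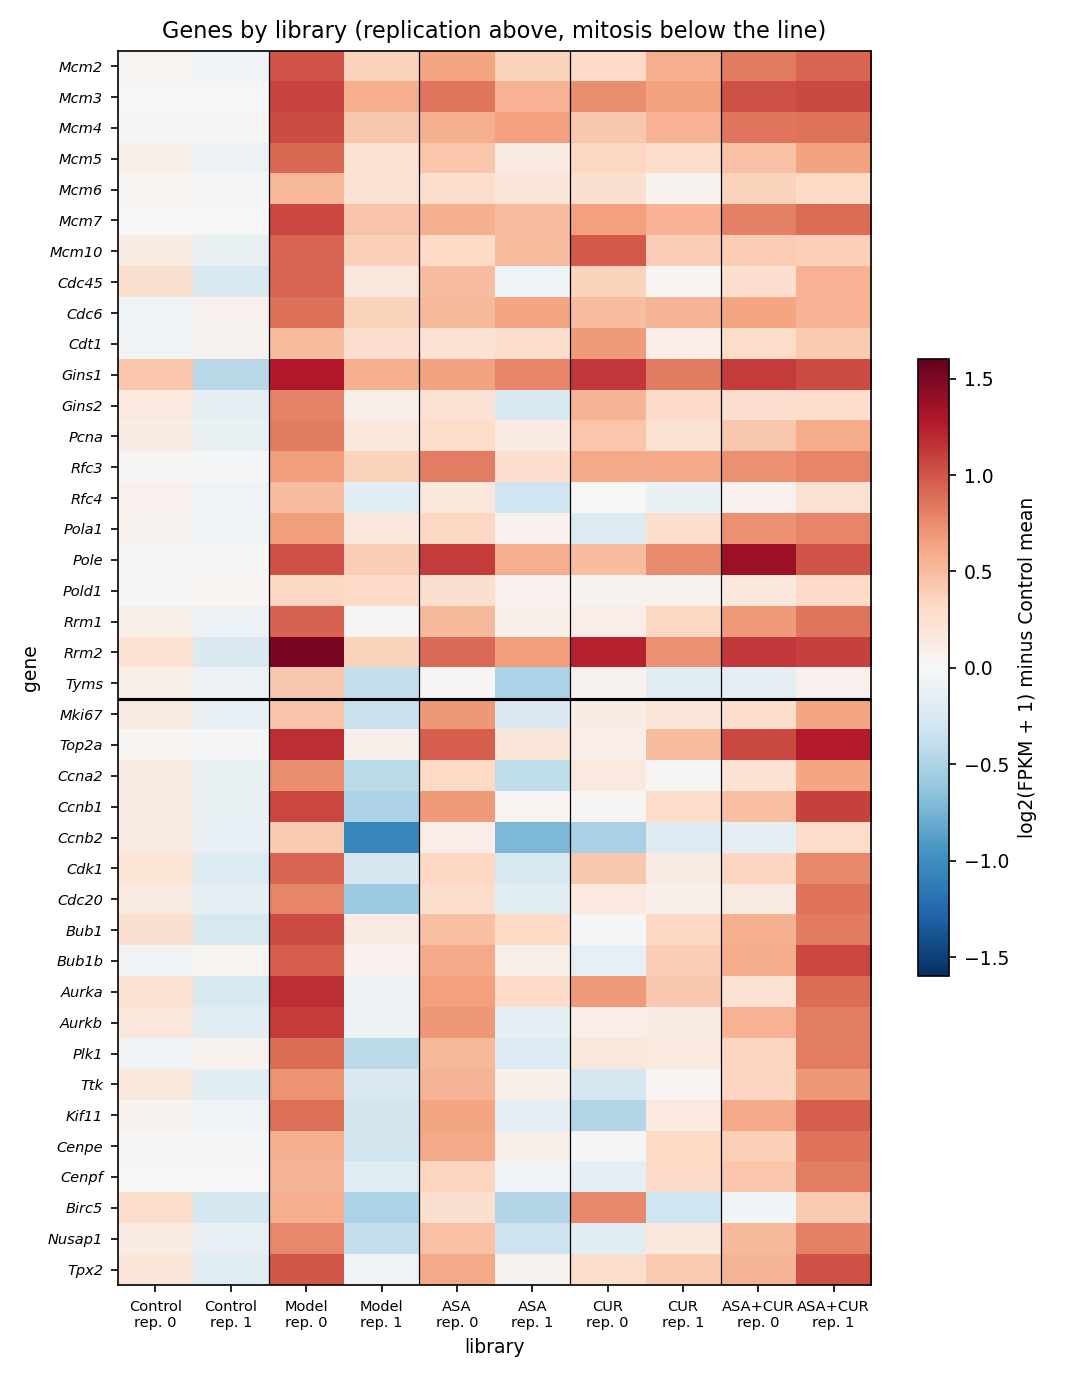
Log2(FPKM + 1) of each of the 40 genes (rows) relative to the Control mean, in the 10 libraries (columns). Model replicate 1 and ASA replicate 1 show values above 0 across Mcm2 to Mcm7 and values below 0 for Ccna2, Ccnb2 and Cdk1, and Model replicate 0 and ASA+CUR replicate 1 are above 0 nearly throughout.

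By the size of the median, the libraries of a group differed more in mitosis genes than in replication genes. Between the 2 Model libraries the median log2 difference (replicate 0 minus replicate 1) was 1.15 for mitosis, from 0.74 for Cenpf to 1.56 for Ccnb1, and 0.63 for replication. All 40 genes were higher in Model replicate 0 (52.9% of all genes tested). Of the 19 mitosis genes, 13 were higher in replicate 0 by more than 1, as were 1.73% of all genes tested. In either direction, 4.23% of all genes tested differed by more than the mitosis median. In ASA the medians were 0.64 for mitosis (19 of 19 higher in replicate 0) and 0.26 for replication (16 of 21), against 49.3% of all genes. In ASA+CUR the order was opposite, with replicate 1 the higher in 19 of 19 mitosis genes (median -0.42) and a median of -0.06 for replication. Over all genes, 47.4% were higher in ASA+CUR replicate 0. The CUR libraries had no common direction, with medians of -0.27 for mitosis (6 of 19 higher in replicate 0) and 0.10 for replication (13 of 21). Over all genes 50.2% were higher in CUR replicate 0, and 60.1% and 83.8% differed by more than these medians. The Control libraries differed by a median of 0.26 for mitosis and 0.11 for replication. Over the 8 AOM/DSS libraries the ratio of the highest to the lowest level of a gene had a median of 2.49 for mitosis genes (2.16 to 3.19) and of 1.68 for replication genes (1.24 to 2.38), so that the ranges of the 2 gene groups overlapped.

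In Model and ASA, leukocyte, macrophage, and T and NK cell markers were higher in replicate 1, where mitosis genes were lower. The 5 leukocyte markers summed to 326 FPKM in Model replicate 1 and 141 FPKM in Model replicate 0, and to 214 and 148 FPKM in ASA replicate 1 and ASA replicate 0. The 6 macrophage markers in the table summed to 541 and 262 FPKM in the same Model libraries and to 449 and 260 FPKM in the ASA libraries. T and NK cell markers (8 genes) summed to 51.4 FPKM in Model replicate 1, 16.7 FPKM in Model replicate 0, 31.6 FPKM in ASA replicate 1 and 20.6 FPKM in ASA replicate 0, and none of these 3 lists had a gene listed at 0. The squamous markers went the opposite way in Model and ASA. They summed to 138 FPKM in Model replicate 0 and 14.9 FPKM in Model replicate 1, and to 380 and 97.9 FPKM in the ASA libraries. In ASA+CUR, where replicate 1 was the higher in mitosis genes, squamous sums were 840.0 FPKM in replicate 0 and 138 FPKM in replicate 1. Leukocyte, macrophage, and T and NK cell sums there were 126, 264 and 16.0 FPKM in replicate 0 and 122, 246 and 14.8 FPKM in replicate 1. B and germinal centre markers summed to 20.3 and 46.3 FPKM in Model replicates 0 and 1, and to 18.6 and 17.6 FPKM in ASA. In the same order, pan-epithelial sums were 11094 and 7917 FPKM in Model and 10525 and 9394 FPKM in ASA. Colonocyte sums were 1537 and 1044 FPKM in Model and 727 and 1280 FPKM in ASA. For fibroblasts they were 681 and 1101 FPKM, and 1061 and 977 FPKM. Stem cell sums were 496 and 514 FPKM, and 398 and 625 FPKM. The part of these markers in the result was not tested.

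The AOM/DSS groups together showed higher levels of replication genes, among them 4 of the 6 genes of the MCM ring. In the mean of the 4 AOM/DSS groups against Control, 9 of 21 replication genes and 0 of 19 mitosis genes passed the test (limma on log2(FPKM + 1), Benjamini-Hochberg adjusted p under 0.05 over all genes). All 9 were higher, and 14.6% of all genes tested were called higher (31.5% called in either direction). The median log2 difference was 0.44 for replication and 0.29 for mitosis, against 0.02 over all genes. At an unadjusted limma p under 0.05 the counts were 12 of 21 and 0 of 19, against 43.8% of all genes. The difference was above 0 for 20 of 21 replication genes and 18 of 19 mitosis genes (51.9% of all genes), and for 15 replication genes and 1 mitosis gene all 8 AOM/DSS libraries lay above both Control libraries (20.1% of all genes). Standard errors ran from 0.11 to 0.28 for replication genes and from 0.24 to 0.38 for mitosis genes. Whether the 2 gene groups differ in their response was not tested, and a gene group with no call is not thereby shown to be unchanged.

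The calls rested on the 2 Control libraries. Without Control replicate 0 only Gins1 passed, and without Control replicate 1 none did, while 1308 and 1221 of all genes still passed in place of 4435. With libraries centred on the pan-epithelial markers, 5 of the 9 passed (Mcm3, Mcm4, Mcm7, Gins1 and Rrm2), without ASA+CUR replicate 1 there were 5 (Mcm3, Mcm4, Mcm7, Rfc3 and Pole), without ASA+CUR replicate 0 there were 6, and without Model replicate 1 there were 14, Top2a among them.

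Mcm2 to Mcm7 form the ring of the replicative helicase, which unwinds DNA ahead of the fork. Mcm3 (chromosome 1, 20802966 to 20820312 in GRCm38.p6) had 14.7 and 14.5 FPKM in Control, 32.00 and 22.3 in Model, 27.2 and 21.9 in ASA, 25.1 and 23.3 in CUR, and 30.7 and 31.3 in ASA+CUR, replicate 0 first. Every AOM/DSS library was above both Control libraries, the log2 difference was 0.82 ± 0.15 (SE), and limma's adjusted p of 0.00517 was the smallest of the 40 genes.

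Mcm7 had 26.2 and 25.8 FPKM in Control, 55.6 and 35.9 in Model, 39.05 and 37.1 in ASA, 41.6 and 38.6 in CUR, and 46.02 and 49.1 in ASA+CUR. Its groups did not overlap either, with a log2 difference of 0.69 ± 0.15 (SE) and a limma adjusted p of 0.0123. Mcm4 had 11.97 and 12.2 FPKM in Control, 26.1 and 16.7 in Model, 18.4 and 19.7 in ASA, 16.7 and 18.3 in CUR, and 22.7 and 22.97 in ASA+CUR, and rose by 0.68 ± 0.16 (SE) (limma adjusted p = 0.0141).

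Mcm2 had 16.5 and 15.4 FPKM in Control, 33.03 and 20.9 in Model, 25.1 and 20.8 in ASA, 20.01 and 24.1 in CUR, and 29.2 and 31.3 in ASA+CUR. CUR replicate 0 was its lowest AOM/DSS library and still above Control, and the difference was 0.63 ± 0.17 (SE) (limma adjusted p = 0.0279). Mcm5 and Mcm6 lay above Control in all 8 libraries too, with smaller differences of 0.44 and 0.28 that did not pass (limma adjusted p = 0.102 and 0.0959). Mcm6 was the MCM gene with the highest FPKM in Control and the smallest difference.

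Cdc6 and Cdt1 load the MCM ring onto origins. Cdc6 was low, with 1.68 and 1.94 FPKM in Control, 4.16 and 2.62 in Model, 3.02 and 3.33 in ASA, 2.93 and 3.11 in CUR, and 3.36 and 3.13 in ASA+CUR. It rose by 0.58 ± 0.16 (SE) with no overlap between groups (limma adjusted p = 0.0297). Cdt1 differed by 0.35 ± 0.16 (SE) (limma adjusted p = 0.138).

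Gins1, Gins2, Cdc45 and Mcm10 complete or activate the helicase. Gins1 had 5.89 and 2.74 FPKM in Control, 11.4 and 6.55 in Model, 6.90 and 7.71 in ASA, 10.2 and 8.07 in CUR, and 10.04 and 9.42 in ASA+CUR, and rose by 0.93 ± 0.26 (SE) (limma adjusted p = 0.0286). Its 2 Control libraries differed by 0.88 on the log2 scale, the widest difference of the 40 genes in Control. Mcm10, Cdc45 and Gins2 differed by 0.53, 0.35 and 0.28 and did not pass.

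Among the clamp, its loader and the polymerases, Rfc3 and Pole rose. Pcna, the sliding clamp and a common marker of proliferation, had 117 and 98.8 FPKM in Control, 192 and 123 in Model, 132 and 118 in ASA, 147 and 127 in CUR, and 146 and 163 in ASA+CUR. Its AOM/DSS libraries were all above Control, but Model replicate 1 and ASA replicate 1 only slightly, and the difference of 0.40 ± 0.18 (SE) did not pass (limma adjusted p = 0.122).

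Rfc3, a subunit of the clamp loader, had 15.9 and 15.5 FPKM in Control, 25.5 and 20.4 in Model, 28.4 and 19.05 in ASA, 24.3 and 24.5 in CUR, and 26.6 and 27.8 in ASA+CUR, a rise of 0.60 ± 0.16 (SE) (limma adjusted p = 0.0213). Rfc4 belongs to the same loader and differed by 0.05 ± 0.20 (SE) with overlapping groups. Pole, the catalytic subunit of the leading-strand polymerase, had 1.53 and 1.59 FPKM in Control, 4.22 and 2.36 in Model, 4.54 and 2.82 in ASA, 2.60 and 3.32 in CUR, and 5.64 and 4.13 in ASA+CUR, with a difference of 0.84 ± 0.22 (SE) (limma adjusted p = 0.0234). Pola1 and Pold1, of the primase-coupled and lagging-strand polymerases, differed by 0.35 and 0.19 and did not pass.

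The nucleotide enzymes were divided. Rrm2, the regulated subunit of ribonucleotide reductase, had 15.9 and 11.3 FPKM in Control, 40.1 and 17.6 in Model, 25.9 and 21.9 in ASA, 32.9 and 22.8 in CUR, and 30.4 and 29.8 in ASA+CUR. The AOM/DSS libraries were all above Control and the difference, 0.96 ± 0.28 (SE), was the largest of the 40 genes in this comparison (limma adjusted p = 0.0356). Its partner Rrm1 differed by 0.44 and did not pass. Tyms, which makes thymidylate, had 11.9 and 10.4 FPKM in Control, 15.3 and 8.23 in Model, 11.3 and 7.51 in ASA, 11.5 and 9.60 in CUR, and 9.83 and 11.7 in ASA+CUR. Its libraries overlapped and the value was -0.08 ± 0.23 (SE), the lowest of the replication genes and the only one below 0. When libraries were centred on pan-epithelial markers the sign turned, to 0.12.

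**Figure D4:**
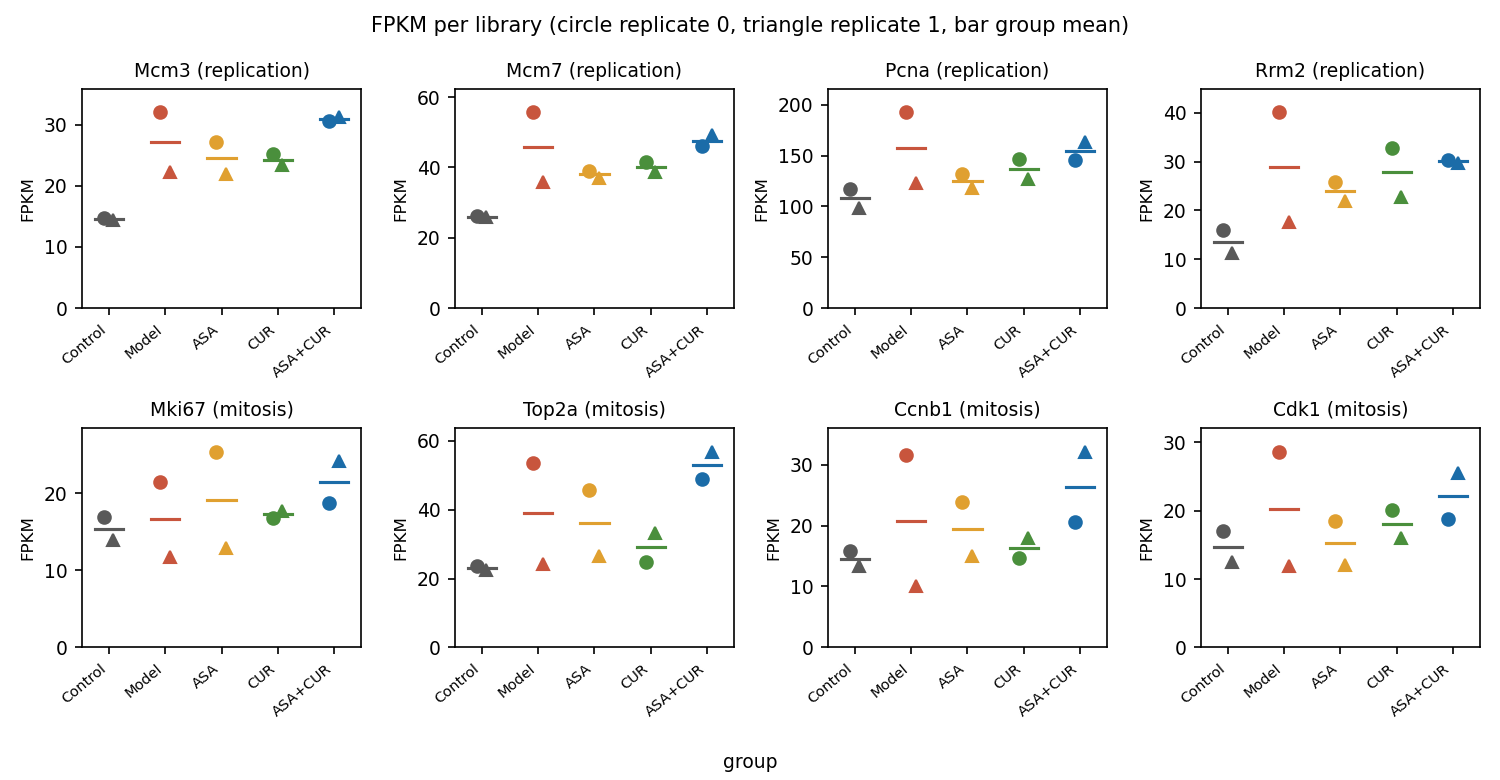
FPKM (vertical axis, linear from 0) of Mcm3, Mcm7, Pcna, Rrm2, Mki67, Top2a, Ccnb1 and Cdk1 in the 10 libraries, with a point for each library and a bar for each group mean. The AOM/DSS points of Mcm3, Mcm7, Pcna, Rrm2 and Top2a lie above both Control points, while those of Mki67, Ccnb1 and Cdk1 lie on both sides of Control.

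No mitosis gene passed the test across the AOM/DSS groups. Top2a, which untangles sister chromatids, had 23.6 and 22.5 FPKM in Control, 53.7 and 24.4 in Model, 45.7 and 26.5 in ASA, 24.9 and 33.2 in CUR, and 48.9 and 56.8 in ASA+CUR. It was the only mitosis gene with all 8 AOM/DSS libraries above Control, and its difference of 0.67 ± 0.30 (SE) was the highest of the mitosis genes (limma adjusted p = 0.119). Mki67, which coats mitotic chromosomes and is the standard histological marker of dividing cells, had 16.9 and 13.9 FPKM in Control, 21.5 and 11.7 in Model, 25.4 and 12.9 in ASA, 16.8 and 17.7 in CUR, and 18.8 and 24.2 in ASA+CUR. Model replicate 1 and ASA replicate 1 were below both Control libraries, and the difference was 0.22 ± 0.28 (SE) (limma adjusted p = 0.571).

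Ccnb1, cyclin B1, had 15.8 and 13.3 FPKM in Control, 31.6 and 10.05 in Model, 23.9 and 14.97 in ASA, 14.7 and 18.00 in CUR, and 20.6 and 32.1 in ASA+CUR. Model replicate 1 was the lowest and ASA+CUR replicate 1 the highest of the 10 libraries, with a ratio of 3.19, and the difference from Control was 0.40 ± 0.37 (SE) (limma adjusted p = 0.448). Cdk1, the kinase it activates, had 17.1 and 12.4 FPKM in Control, 28.6 and 11.9 in Model, 18.6 and 12.1 in ASA, 20.1 and 16.1 in CUR, and 18.8 and 25.6 in ASA+CUR, with a difference of 0.30 ± 0.31 (SE) and overlapping groups (limma adjusted p = 0.488). Ccnb2, the other B-type cyclin, had 31.3 and 26.04 FPKM in Control, 38.6 and 13.3 in Model, 30.8 and 17.01 in ASA, 19.6 and 24.6 in CUR, and 25.6 and 35.3 in ASA+CUR. Its value of -0.23 ± 0.37 (SE) was the lowest of the mitosis genes and the only one below 0 (limma adjusted p = 0.665). Ccna2, cyclin A2, differed by 0.16 and did not pass.

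Birc5 (survivin), of the chromosomal passenger complex, had 46.5 and 31.4 FPKM in Control, 57.9 and 26.5 in Model, 45.8 and 27.3 in ASA, 66.1 and 30.5 in CUR, and 37.1 and 51.2 in ASA+CUR. The highest value was in CUR replicate 0 and the groups overlapped (log2 difference 0.09 ± 0.38 (SE), limma adjusted p = 0.883), and its sign turned without Control replicate 1, Model replicate 0, ASA replicate 0 or CUR replicate 0. Among the checkpoint genes and mitotic kinases, Aurka differed by 0.54, Bub1 by 0.46, Bub1b by 0.46, Aurkb by 0.40, Plk1 by 0.28, Ttk by 0.24 and Cdc20 by 0.19. The spindle and kinetochore genes Tpx2, Cenpe, Kif11, Cenpf and Nusap1 differed by 0.48, 0.32, 0.29, 0.26 and 0.23. All of these had groups that overlapped.

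**Figure D5:**
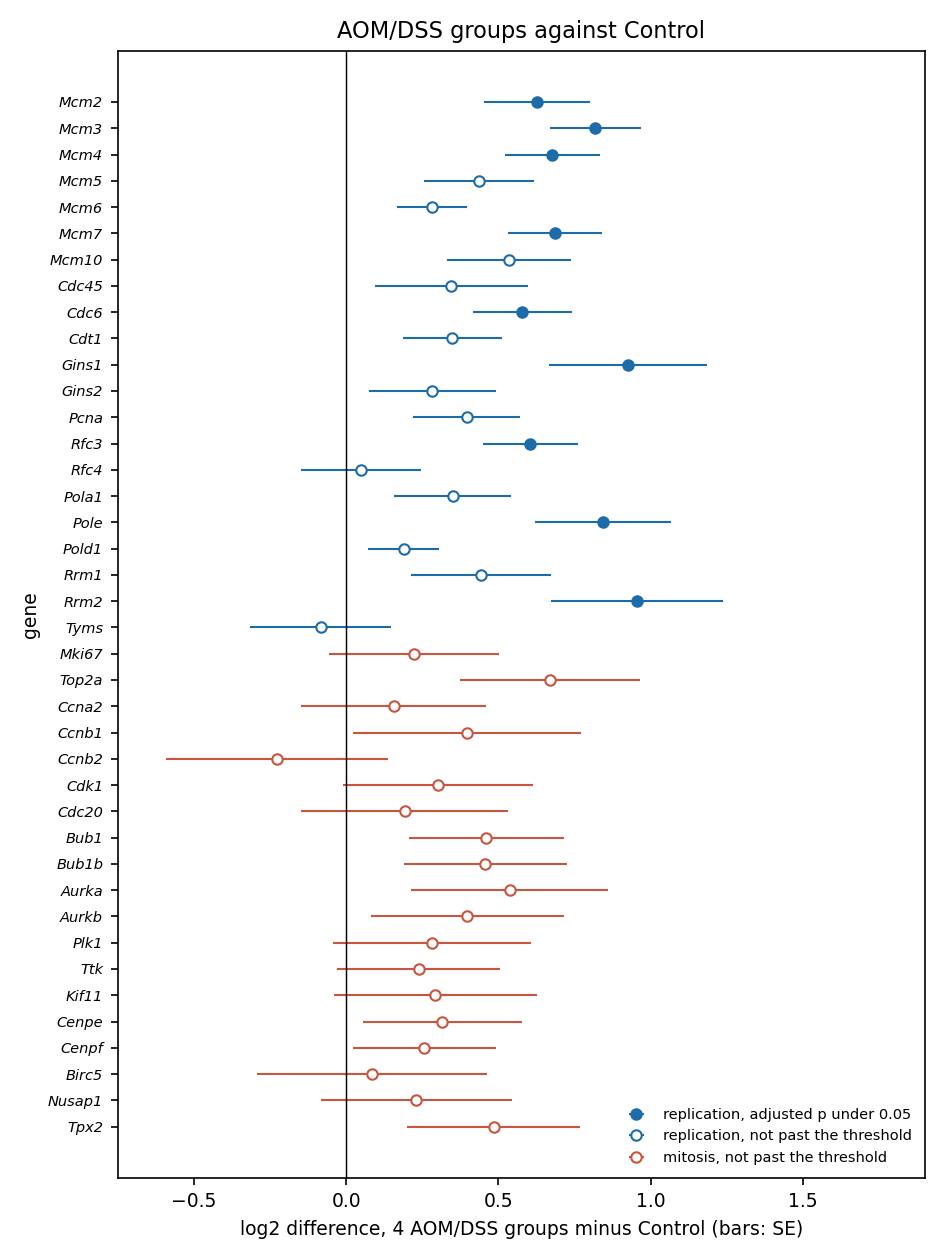
Log2 difference between the mean of the 4 AOM/DSS groups and Control (horizontal axis, with limma's standard error) for the 40 genes, replication and mitosis marked apart. The 9 replication genes that passed lie between 0.58 and 0.96, and the mitosis genes, none of which passed, have standard errors of 0.24 to 0.38.

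Within each gene group the roles differed in size. In Model replicate 1, relative to Control, the mean was 0.39 for MCM2 to MCM7, 0.32 for Cdc6 and Cdt1, 0.31 for the helicase partners, 0.29 for the polymerases, 0.13 for the clamp and its loader and close to 0 for the nucleotide enzymes. In the same library the cyclins and Cdk1 stood at -0.56, spindle and kinetochore genes at -0.24, kinases and checkpoint genes at -0.21, and Mki67 with Top2a at -0.14. ASA replicate 1 had 0.40 for the MCM genes and -0.33 for the cyclins and Cdk1, while its other mitosis roles, at -0.03 for kinases and checkpoint genes, -0.08 for spindle and kinetochore genes and -0.02 for Mki67 with Top2a, were within the range of Control. In ASA+CUR replicate 1 the MCM genes stood at 0.79, the cyclins and Cdk1 at 0.70 and spindle and kinetochore genes at 0.90.

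The comparison of Model with Control leaves out the dietary agents. Mcm3 rose by 0.83 ± 0.19 (SE), Mcm7 by 0.76 ± 0.20 (SE) and Mcm4 by 0.74 ± 0.20 (SE) (limma adjusted p = 0.0239, 0.0359 and 0.0416). These 3 were the only ones of the 40 genes to pass, where 6.84% of all genes were called higher and 16.2% in either direction. The share called, 3 of 40, was thus near the share of all genes called higher and below that in either direction. At an unadjusted limma p under 0.05 there were 12 of 21 replication genes and 0 of 19 mitosis genes, against 31.7% of all genes. The median was 0.56 for replication (21 of 21 above 0) and 0.24 for mitosis (18 of 19 above 0), where 51.4% of all genes were above 0. The 2 Model libraries were above both Control libraries for 16 of 21 replication genes and for 2 of 19 mitosis genes, Top2a and Bub1b, against 32.7% of all genes. Rrm2 had the highest replication value, 0.94 ± 0.36 (SE) (limma adjusted p = 0.113), and Tyms the lowest, 0.02 ± 0.29 (SE). Among mitosis genes Top2a was highest at 0.63 ± 0.37 (SE) and Ccnb2 lowest at -0.31 ± 0.46 (SE).

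These 3 calls were lost without either Control library, without Model replicate 0, when only the 2 groups were fitted and when libraries were centred on pan-epithelial markers, and 7 genes passed without Model replicate 1. Without Model replicate 0 the medians were 0.30 for replication and -0.29 for mitosis, and without Model replicate 1 they were 0.92 and 0.88. Without Model replicate 0 the values of Mki67, Ccnb1, Cdk1 and Birc5 turned negative (-0.36, -0.49, -0.27 and -0.51).

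The diet groups were each set against Control, and since all comparisons share the 2 Control libraries their values are given side by side only. In ASA, Mcm3 alone passed, with 0.70 ± 0.19 (SE) (limma adjusted p = 0.0323), where 9.78% of all genes were called higher. In CUR it was again Mcm3 alone, with 0.70 ± 0.19 (SE) (limma adjusted p = 0.0446), against 6.67% of all genes. The share of replication genes called, 1 of 21 in each, was thus below that background. The shares called in either direction were 22.5% and 15% of all genes. At an unadjusted limma p under 0.05 there were 6 replication genes in ASA (36.9% of all genes) and 8 in CUR (30.8%), and 0 mitosis genes in either. The medians were 0.31 for replication and 0.25 for mitosis in ASA, and 0.42 and 0.15 in CUR. The mitosis median of ASA turned to -0.14 without ASA replicate 0 and was 0.54 without ASA replicate 1, and that of CUR was 0.03 without Control replicate 1 and 0.27 without Control replicate 0. Differences above 0 were found for 18 replication and 16 mitosis genes in ASA (51.8% of all genes) and for 19 and 15 in CUR (50.8%). Both ASA libraries were above both Control libraries for 17 replication and 5 mitosis genes (36.5% of all genes), and both CUR libraries for 17 and 4 (29.5%). Tyms and Ccnb2 were the lowest of their gene groups in both diets. Pole was the highest replication gene in ASA at 0.84 ± 0.28 (SE) and Gins1 in CUR at 0.99 ± 0.33 (SE), and neither passed. Either call of Mcm3 was lost without Control replicate 0, without Control replicate 1, on the epithelium-centred scale, and when a library of the diet group itself was left out. The call in CUR was also lost without the intensity trend and when only the 2 groups were fitted. Without ASA replicate 1, Rfc3 passed in ASA, and without CUR replicate 1, Mcm10 and Cdt1 passed in CUR.

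In ASA+CUR, 8 of 21 replication genes and 1 of 19 mitosis genes rose, where 13.1% of all genes were called higher and 29.5% in either direction. Mcm3 rose by 1.04 ± 0.19 (SE), Mcm2 by 0.88, Mcm4 by 0.86, Mcm7 by 0.85, Gins1 by 1.08, Rfc3 by 0.76, Pole by 1.19 ± 0.28 (SE) and Rrm2 by 1.11 ± 0.36 (SE). Limma's adjusted p-values ran from 0.00608 for Mcm3 to 0.049976 for Rrm2, at the edge of the threshold. Top2a, the mitosis gene that passed, rose by 1.16 ± 0.37 (SE) (limma adjusted p = 0.0498). At an unadjusted limma p under 0.05 there were 14 replication and 2 mitosis genes, against 42.5% of all genes. The medians were nearly equal, 0.60 for replication (20 of 21 above 0) and 0.62 for mitosis (19 of 19), against 51.6% of all genes above 0. Both ASA+CUR libraries were above both Control libraries for 20 replication and 15 mitosis genes (41.2% of all genes). Tyms at -0.04 and Ccnb2 at 0.07 were again lowest. Without Control replicate 1 no gene passed, without Control replicate 0 Mcm3 and Gins1 did, without either ASA+CUR library Mcm3 alone did, and 22 passed when only the 2 groups were fitted. The calls of Rrm2 and Top2a were also lost with median-of-ratios scaling, with no filter on low values, with no intensity trend and with the highest transcript in place of the sum. That of Top2a was lost with the replicate number as a block as well, and that of Gins1 with no filter and with the highest transcript. With libraries centred on pan-epithelial markers 11 passed, with Pcna and Rrm1 added to the 9. The 22 genes that passed when only the 2 groups were fitted were 14 replication and 8 mitosis genes. In that fit 6758 of the 14061 genes tested passed, so that a large share of all genes did too.

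Each diet group was set against Model to ask whether aspirin, curcumin or both changed these genes in AOM/DSS tissue. None of the 40 genes passed limma's test in any of the 3 comparisons, nor in the F test over the 4 AOM/DSS groups, and none had an unadjusted p under 0.05 in any of them, where 2.38% (ASA), 4.86% (CUR) and 10.1% (ASA+CUR) of all genes had. The share of all genes called was 0.0142% in ASA, 0.00711% in CUR, 0.0142% in ASA+CUR and 0.0142% in the F test. The median of ASA minus Model was -0.19 for replication (2 of 21 above 0) and -0.08 for mitosis (5 of 19 above 0), against 47.7% of all genes above 0. CUR minus Model gave -0.16 (5 of 21) and -0.09 (5 of 19), against 47.9%. ASA+CUR minus Model gave 0.01 for replication (11 of 21) and 0.34 for mitosis, with 19 of 19 mitosis genes above 0, from 0.01 for Aurka to 0.53 for Top2a, against 47.9% of all genes. All 3 share the Model libraries, and the sign of these medians depended on which Model library was kept. Without Model replicate 0 the medians for replication and mitosis were 0.09 and 0.50 for ASA, 0.15 and 0.44 for CUR, and 0.35 and 0.83 for ASA+CUR. Without Model replicate 1 all 6 were below 0, at -0.52 and -0.70 for ASA, -0.46 and -0.72 for CUR, and -0.21 and -0.28 for ASA+CUR. The mitosis median of ASA minus Model also turned to 0.21 without ASA replicate 1, and that of ASA+CUR minus Model was 0.10 without ASA+CUR replicate 1. With libraries centred on pan-epithelial markers the CUR medians were -0.48 and -0.42, beside -0.34 over all genes.

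No mitosis gene separated the Model libraries from those of a diet group. The largest difference was that of Top2a in ASA+CUR, at 48.9 and 56.8 FPKM against 53.7 and 24.4 FPKM (log2 difference 0.53 ± 0.37 (SE), limma adjusted p = 0.601). Of the replication genes, Pold1 was lower in both ASA and both CUR libraries than in either Model library, and Rfc3 and Pola1 were higher in both ASA+CUR libraries, where non-overlapping lower values were found for 14.2% and 12.1% of all genes in ASA and CUR and non-overlapping higher values for 24.8% in ASA+CUR. Pold1 had 7.23 and 7.52 FPKM in Control, 9.50 and 9.31 in Model, 8.97 and 7.74 in ASA, 7.67 and 7.69 in CUR, and 8.43 and 9.31 in ASA+CUR. Pola1, with the smallest p of the 40 genes in the F test (limma adjusted p = 0.750), had 3.69 and 3.36 FPKM in Control, 6.20 and 4.08 in Model, 4.67 and 3.75 in ASA, 2.87 and 4.51 in CUR, and 6.48 and 6.74 in ASA+CUR. Which size of change 2 libraries a group could have detected was not tested.

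Transcript length moved with the values of CUR. Between CUR replicate 0 and CUR replicate 1 the median log2 difference of all genes was 0.34 in the shortest genes (the lowest quartile of length, up to 1782.5 bases) and -0.31 in the longest (the highest quartile, from 4249.5 bases). The 20 shorter of the 40 genes had a median of 0.10 and the 20 longer -0.17. Birc5 (947 bases) differed by 1.09, Pola1 (5346 bases) by -0.51, Kif11 (4819 bases) by -0.63 and Cenpf (11130 bases) by -0.45. These were picked as examples, and other members did not follow their length. Ccnb2 (1531 bases) differed by -0.31, Mcm10 (3494 bases) by 0.58, Cdk1 (4375 bases) by 0.30 and Mki67 (10061 bases) by -0.08. In the other 4 groups the medians of the shortest and the longest genes lay between -0.07 and 0.10. The part of length in the CUR values of these genes was not tested.

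Other genes of the 2 pathways gave few calls in the AOM/DSS groups. Of 32 further replication genes, 3 rose in the AOM/DSS groups (14.6% of all genes were called higher), which were Chaf1b, a histone chaperone subunit (log2 difference 0.69, limma adjusted p = 0.0115), Timeless of the fork protection complex (0.65, 0.0118) and the nuclease Dna2 (0.67, 0.0232). Their median was 0.33. Of 14 further nucleotide genes, Ctps and Shmt2 rose, by 0.56 and 0.81 (limma adjusted p = 0.00814 and 0.0140). In single groups this list had 2 of 14 called higher in Model and 3 of 14 in ASA+CUR, where 6.84% and 13.1% of all genes were. Of 40 further mitosis genes none rose in the AOM/DSS groups together, and their median was 0.30 with 36 of 40 above 0. Pttg1 (securin) fell, by -0.78 ± 0.16 (SE) (limma adjusted p = 0.00844). In ASA+CUR against Control, 2 of the 40 were called higher and 1 lower, and 4 of the 32 replication genes higher. Of all genes 13.1% were called higher there and 29.5% in either direction. Both ASA+CUR libraries were above both Control libraries for 32 of the 40 mitosis genes (41.2% of all genes). Pttg1 had 47.01 and 47.7 FPKM in Control, 27.9 and 33.4 in Model, 24.8 and 26.8 in ASA, 38.8 and 29.6 in CUR, and 23.9 and 16.8 in ASA+CUR, so that it was lower than Control in all 8 libraries.

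Of 42 regulators of the cell cycle, 9 rose and 6 fell in the AOM/DSS groups (14.6% of all genes called higher, 16.9% lower). Cyclin D1, which opens the passage from G1 to S phase, rose with Ccnd1 at 40.02 and 43.8 FPKM in Control, 87.8 and 80.3 in Model, 85.4 and 114 in ASA, 126 and 108 in CUR, and 97.3 and 102 in ASA+CUR (log2 difference 1.22 ± 0.13 (SE), limma adjusted p = 0.000551). Its kinase Cdk4 had 96.8 and 93.1 FPKM in Control, 187 and 171 in Model, 153 and 162 in ASA, 171 and 177 in CUR, and 178 and 208 in ASA+CUR (0.87 ± 0.11 (SE), limma adjusted p = 0.000969). Both were above Control in every AOM/DSS library, and the 2 Model libraries, apart in mitosis genes, were close to each other in Ccnd1 and Cdk4.

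Myc, a transcription factor that drives growth and entry into the cycle, had 18.02 and 18.8 FPKM in Control, 55.6 and 49.4 in Model, 37.1 and 59.4 in ASA, 60.5 and 41.7 in CUR, and 55.6 and 54.1 in ASA+CUR (1.42 ± 0.19 (SE), limma adjusted p = 0.00143). Cdkn2a, whose transcripts encode the p16 inhibitor of Cdk4 and the Arf protein, was listed at 0 in each Control library and at 5.66 to 38.6 FPKM in the AOM/DSS libraries, and passed the test (limma adjusted p = 0.000833). In Model against Control these 4 genes rose and Cdkn1b, the p27 inhibitor, fell. Against Model, no gene of the 4 lists passed in any diet group, where at most 0.0142% of all genes did.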

How the data were processed

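RNA-seq libraries (Illumina TruSeq RNA version 2 kit, per the labels' protocols) of 10 mouse colon samples were deposited as 1 table of FPKM values per RefSeq transcript. The tools in the submitters' processing notes are TopHat2 (2.0.9), Cuffdiff, Bowtie2 (2.1.0.0) and bcl2fastq (2.17.1.14), and the builds mm10 and GRCm38. The version of Cuffdiff and its settings are not given in the sources used here. Depth is unknown: low values did not resolve into whole reads (in the 9 libraries set against Control replicate 0, 26.7% to 30.7% of ratios at their mode, within 0.05 on the log2 scale), so no counts were used.

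Of 30073 transcripts, 29443 were named from a RefSeq table of GRCm38.p6 and 179 from GENCODE, and FPKM was summed per gene. Genes that reached 1 FPKM in 2 or more libraries (14061) were fitted on log2(FPKM + 1), over all 10 libraries together and with a variance trend on intensity (R 4.3.3, limma 3.58.1, residual degrees of freedom 5). Of these steps, only the limma fit of Model against Control had first been run on simulated log2 values with known changes. Tests were two-sided and p-values were adjusted by Benjamini-Hochberg over all genes. A fold change on this scale understates the change of low genes. Groups and replicate numbers came from the sample titles. Sums of FPKM ran from 515959 to 720895 per library, and 12781 to 13283 genes reached 1 FPKM.

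The 40 genes and the lists of other genes and markers were chosen with earlier results of these data known, so no p is given for a list. The result of 1 marker list is not reported here. Named in full are 8 fixed genes (Mcm2, Pcna, Rrm2, Mki67, Top2a, Ccnb1, Cdk1 and Birc5), every member past the threshold in Model or all AOM/DSS groups against Control, the highest and lowest member of each gene group, and up to 4 called genes of each other list by smallest p. Pold1, Pola1 and Cdkn1b were named after their values were seen. Alternatives were another pseudocount, no filter, other scalings, no trend, fewer groups, a replicate block, the highest transcript and each library left out.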

Additional observations from a re-analysis of the deposited data

How the results depend on the processing

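In the AOM/DSS groups against Control the number of the 40 genes that passed depended most on the Control libraries. Leaving out in turn each library of the groups compared gave 0 to 14 genes in the AOM/DSS groups against Control (9 with all libraries), 0 to 7 for Model (3), 0 to 1 for ASA (1), 0 to 2 for CUR (1) and 0 to 2 for ASA+CUR (9), where a lone library of a group was assumed to vary like the other groups. The numbers in the AOM/DSS groups were 1 without Control replicate 0, 0 without Control replicate 1, 14 without Model replicate 1 and 5 without ASA+CUR replicate 1. Centring on the pan-epithelial markers gave 5 in the AOM/DSS groups, 0 for Model, ASA and CUR alike, and 11 for ASA+CUR. Without the intensity trend CUR had 0. Fitting only the groups compared gave 0 for Model, 3 for ASA, 0 for CUR and 22 for ASA+CUR. Of all 14061 genes, 2591, 3701, 1395 and 6758 passed in these fits. Fits with the replicate number as a block gave 2 genes in CUR, 2 in Model and 8 in ASA+CUR (Top2a lost), and deviations of same-numbered libraries correlated between -0.21 and 0.33, so the numbers were not taken to pair the libraries. Comparisons with Model and the F test gave 0 of the 40 genes under every alternative run. The cause of these changes was not tested.

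The gap between replication and mitosis ran, with single libraries left out, from 0.018 to 0.55 for Model (both ends from leaving out a Model library), -0.029 (without ASA replicate 1) to 0.36 for ASA, 0.18 to 0.39 for CUR and -0.17 to 0.20 for ASA+CUR. In the last it was -0.03 without Control replicate 0 and -0.17 without ASA+CUR replicate 0. Birc5 in the AOM/DSS groups turned to -0.19 without Control replicate 1, -0.05 without Model replicate 0, -0.0049 without ASA replicate 0 and -0.05 without CUR replicate 0. In Model against Control, without Control replicate 1, Mki67 was at -0.08 and Birc5 at -0.24, and without Model replicate 0 Mki67 was at -0.36, Ccnb1 at -0.49, Cdk1 at -0.27 and Birc5 at -0.51, while without Model replicate 1 these 4 were at 0.46, 1.07, 0.93 and 0.59. Of 567 recomputed values of single genes, 450 kept direction and side of the threshold, 102 lost and 5 gained a call, and 10 changed sign. The 567 include genes with no call in the main fit, which could not lose one. Among values that had a call to lose, the share lost was therefore larger than 102 of 567.

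Over all genes, 4435 passed in the AOM/DSS groups against Control, 1308 and 1221 without Control replicate 0 or 1, and 2525 on the epithelium-centred scale. Model gave 2276, with 346 and 322 without a Control library, 1079 without Model replicate 1 and 1049 centred. ASA gave 3163, with 799 and 785 without a Control library, 1635 without ASA replicate 1 and 1723 centred. CUR gave 2110, with 380 and 447 without a Control library, 1074 centred and 1395 with only the groups compared. ASA+CUR gave 4148, with 1340 and 1334 without a Control library, 2317 and 1478 without ASA+CUR replicate 0 or 1, 2307 centred and 6758 with only the groups compared. Comparisons with Model ranged from 0 to 9 genes and the F test from 0 to 17. Centring moved the median of all genes in the AOM/DSS groups against Control from 0.02 to 0.23, and the share of called genes that were higher from 46.4% to 62.4% (Model 42.3% to 68.3%, ASA 43.5% to 67.7%, ASA+CUR 44.4% to 70.3%). In CUR that share went from 44.5% to 43.4% and the median of all genes from 0.01 to -0.08. Relative to that shift the medians of replication and mitosis genes were 0.65 and 0.50 beside 0.23.

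Depth is unknown, and 2 libraries a group limit what can be detected.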
